A study of Mus musculus with 6 samples.

Results

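The cells described here are myeloid cells of the mouse spinal cord that carried transcripts of interferon-stimulated genes. They were chosen by a rule on the deposited values of 9 genes. The summed value of C1qa, Ctss and Tyrobp, which mark microglia and macrophages, had to reach at least 8, and at least 2 of Isg15, Ifit1, Ifit2, Ifit3, Rsad2 and Oasl2 had to be above 0. The rule selected 236 of the 11481 cells that passed the myeloid gate, in a table of 13614 cells and 18792 genes. They were compared with the 9632 gated cells in which none of the 6 genes was above 0, while 1613 gated cells with exactly 1 of the 6 belonged to neither group. Because the selected cells were picked on these 9 genes, the values of those genes are a description and support nothing.

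The study sequenced dissociated spinal cord by droplet single-cell RNA sequencing, in WT mice and in Nd6 mice, which carry a mutation in mt-Nd6, a complex I subunit gene of the mitochondrial genome, so that the mutation is not restricted to myeloid cells. The labels give 6 libraries: 1 from WT and 1 from Nd6 healthy controls, and 2 from WT and 2 from Nd6 mice with EAE, an autoimmune disease of the central nervous system induced by immunization against a myelin protein (MOG). To block transcription during dissociation, animals of every group received actinomycin D and triptolide by perfusion, and myelin was removed. The cell names carried 6 endings, called here sets A to F in order of size (4633 cells in A, 809 in F), and no label links an ending to a library. The table was therefore read as 1 pooled sample. The sets were not assigned to a genotype or disease state here, so differences between sets cannot be told apart from these. No genotype and no disease state was compared, no test was run, and the 95% exact binomial (Clopper-Pearson) intervals of shares cover counting error only. The deposited values are whole numbers that sum to 687 to 1578 per cell (median 962). The step that led to them from molecule counts is not given in the sources used here, so the sequencing depth is unknown. Across sets, 18 cell barcodes occurred more than once, and 0 of the selected cells carried one of them.

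Type I interferons act on nearly every cell through the receptor Ifnar1/Ifnar2. The receptor's kinases activate transcription factors, among them Stat2, that act with Irf9 on interferon-stimulated response elements in the promoters of their target genes. The products restrict viral RNA and protein synthesis (the Ifit and Oas families, Rsad2, Eif2ak2), sense foreign nucleic acid (Ddx58, Ifih1, Zbp1, the Ifi200 family), or tag proteins with the ubiquitin-like Isg15. Microglia and macrophages with such a transcriptome are a recurrent minor state in inflamed, injured and ageing nervous tissue.

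The response element holds GAAA blocks separated by 2 bases, and its core was searched in the promoters of the genes that the results turn on. The search asked for GAAA, any 2 bases and GAAA again, on both strands, in windows from 250 bases before to 50 after each start site (RefSeq sequence, build GRCm38.p6). It was found in 3.44% of 32851 windows, and in 4.94% of the 2734 symbols that could be matched among all genes compared. Of the 6 rule genes, 4 held it, and Oasl2 and Ifit2 did not within this window. The sequences below are read 5′ to 3′ on the strand of the gene, and capitals mark the bases covered by the motif, which in Isg15 forms 3 overlapping copies. A capital run that reads TTTC is the motif on the opposite strand. They are shown because these 4 rule genes, and 4 genes outside the rule that were high in the selected cells, carry the element.
Isg15 (chr4:156200830-156200941, minus strand): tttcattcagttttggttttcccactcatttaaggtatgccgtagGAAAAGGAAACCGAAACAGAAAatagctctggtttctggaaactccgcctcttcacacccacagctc
Ifit1 (chr19:34640740-34640858, plus strand): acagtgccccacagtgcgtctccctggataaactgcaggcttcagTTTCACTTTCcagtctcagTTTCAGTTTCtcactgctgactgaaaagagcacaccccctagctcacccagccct
Ifit3 (chr19:34583328-34583461, plus strand): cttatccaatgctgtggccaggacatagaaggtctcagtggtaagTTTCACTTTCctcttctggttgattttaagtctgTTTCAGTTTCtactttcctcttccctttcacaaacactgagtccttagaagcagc
Rsad2 (chr12:26456518-26456617, minus strand): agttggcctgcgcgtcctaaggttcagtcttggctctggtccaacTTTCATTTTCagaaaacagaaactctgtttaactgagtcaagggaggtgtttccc
Cxcl10 (chr5:92349048-92349139, minus strand): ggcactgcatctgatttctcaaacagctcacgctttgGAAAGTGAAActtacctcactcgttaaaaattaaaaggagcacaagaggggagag
Ifi211 (chr1:173913029-173913128, minus strand): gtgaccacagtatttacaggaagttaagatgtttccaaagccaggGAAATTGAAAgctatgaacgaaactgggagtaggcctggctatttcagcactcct
Slfn5 (chr11:82951902-82952001, plus strand): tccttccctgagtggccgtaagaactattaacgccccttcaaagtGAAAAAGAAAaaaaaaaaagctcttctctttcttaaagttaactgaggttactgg
Gbp2 (chr3:142620559-142620658, plus strand): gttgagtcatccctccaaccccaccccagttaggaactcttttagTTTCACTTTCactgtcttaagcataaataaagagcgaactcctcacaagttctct
In Isg15, Ifit1, Ifit3 and Rsad2 the motif began 78, 104, 156 and 120 bases upstream of the start site. Cxcl10, Ifi211, Slfn5 and Gbp2 were not part of the rule and are described further on. Of the 20 genes with the highest folds described there, 15 could be matched and 7 held the motif. The first of the 20, Phf11d, did not hold it. The motif was present for 9 of the 10 matched interferon-inducible GTPase genes, 12 of 19 sensors, 18 of 41 effectors, 2 of 8 transcription factors and 1 of 6 chemokines, but for 0 of 3 Isg15 conjugation genes. It was present for 5 of 17 class I and 0 of 6 class II presentation genes. The gamma-activated site TTCNNNGAA, an element of genes that respond to type II interferon, was in 8.30% of all windows. By symbol it was in 9.55% of all symbols, in 8.01% of those matched among all genes compared, and in 6 of the 10 GTPase genes. A match describes these letters only, and binding was not measured.

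Isg15, the ubiquitin-like modifier, was the most widespread of the rule genes in the selected cells, with a value above 0 in 161 of 236 (68.2%) and a mean value of 1.05. Ifit3 followed in 113 cells (47.9%), Ifit2 in 88 (37.3%), Oasl2 in 85 (36.0%), Rsad2, the antiviral enzyme viperin, in 51 (21.6%), and Ifit1 in 47 (19.9%). Most of these values were 1: the share of positive cells at exactly 1 ran from 74.5% for Isg15 to 96.5% for Oasl2, and the highest single-cell values were 11 for Isg15 and for Ifit3. The selection thus rested on few transcripts per cell. Just 2 of the genes were above 0 in 184 of the selected cells, 3 in 37, and 4 or more in 15. The pair seen most often was Isg15 with Ifit3 (71 cells), then Isg15 with Oasl2 (53) and Isg15 with Ifit2 (45), and the rarest was Ifit1 with Rsad2 (9). None of the genes alone marked a selected cell, since of the 696 gated cells with Isg15 only 161 were selected (23.1%), and of the 161 with Rsad2 only 51 (31.7%). At the edge of the gate, the 8 selected cells with a sum of exactly 8 had a mean Isg15 of 1.5, and the 10 cells with 2 or more rule genes and a sum of 7 had 1.00.

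The selected cells made up 2.06% of gated cells (95% interval 1.80 to 2.33%), but they were unequally spread over the sets. Set B held 153 of them, 4.51% of its 3394 gated cells (3.83 to 5.26%). Set C held 24 of 1301 (1.84%, 1.19 to 2.73%) and set A 48 of 4153 (1.16%, 0.853 to 1.53%). In the other sets they were rare, with 3 of 1064 in D (0.282%, 0.0582 to 0.822%), 3 of 900 in E (0.333%, 0.0688 to 0.971%) and 5 of 669 in F (0.747%, 0.243 to 1.74%). The interval of set B did not overlap that of any other set, whereas those of A and C overlapped each other. Cells with exactly 1 rule gene were also most frequent in B, at 22.4% of gated cells in B, 14.6% in A, 9.68% in C, 8.07% in F, 3.76% in D and 3.11% in E.

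Selected cells were more frequent among gated cells with more genes detected, and the reason was not tested. The selected cells had a median of 656 genes with a value and a total of 1083, against 543.5 genes and 964 in the comparison cells. Over 5 equal classes of the number of genes outside the rule, from fewest to most, the share selected, pooled over sets, rose from 0.870% to 1.21%, 2.14%, 2.34% and 3.73%. It also rose at each class within A (0.425% to 1.82%) and B (1.57% to 9.42%). In C it did not, with 1.20%, 2.44%, 0.641%, 0% and 7.35%. With every set given the gene-number makeup of all gated cells, the shares were 0.980% in A, 4.60% in B, 2.32% in C, 0.364% in D, 0.399% in E and 0.754% in F, where the smallest class of C held 45 gated cells. The part of gene number in the differences between sets was not tested. To take gene number into account, folds below are given in a pair of forms. The set-weighted fold is the mean over selected cells divided by the mean over comparison cells, the latter weighted so that each set counts as it does in the selected cells. The matched fold weights the comparison cells by set and by these 5 classes together. A gene described as higher or lower in each of sets A, B and C was so by its matched fold within each set.

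**Figure D1:**
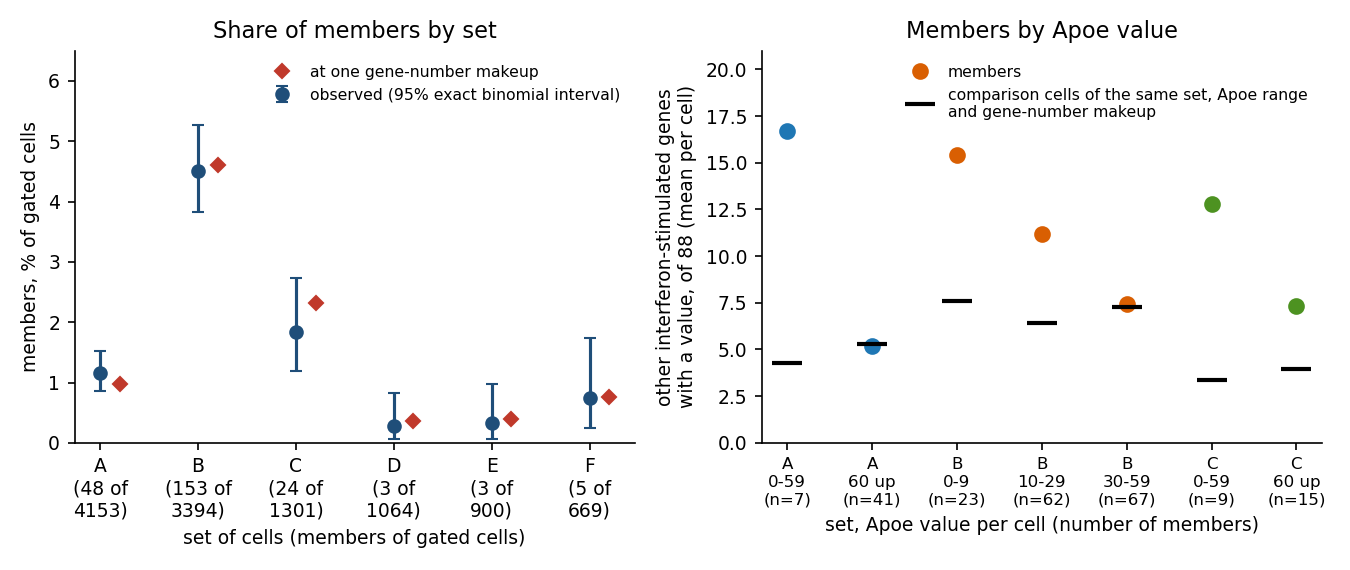
Left, selected cells (members) as a percentage of gated cells in each set, with 95% exact binomial intervals, and the same shares at the gene-number makeup of all gated cells (diamonds); set B stands at 4.51% and the others between 0.282% and 1.84%. Right, mean number of 88 other interferon-stimulated genes with a value per cell, by set and Apoe value, for members (circles) and for comparison cells of the same set, Apoe range and gene-number makeup (dashes); in set A the circle is at 16.7 below an Apoe value of 60 and at 5.20 from 60 up.

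Other interferon-stimulated genes, which the rule did not use, were found more often in the selected cells, and the more so the more rule genes a cell carried. Of 88 such genes in the table (effectors, sensors, Isg15 conjugation enzymes and transcription factors), comparison cells had a mean of 4.29 with a value. Cells with 1 rule gene had 5.82, against 5.44 in comparison cells matched on set and gene number. Cells with 2 rule genes had 7.96 against 6.08, those with 3 had 12.5 against 6.29, and those with 4 or more had 19.9 against 6.91. The summed value of the 88 genes was 1.42-fold the matched value with 2 rule genes, 2.07-fold with 3, and 3.42-fold with 4 or more. The highest single cell, in set B, had 39 of the 88.

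The selected cells were far from uniform. Their number of other interferon-stimulated genes had a median of 8, quartiles of 5 and 11, and a lowest value of 1. At least 15 of the 88 were found in 40 of the 236 (16.9%, 12.4 to 22.4%), compared with 0.901% of matched comparison cells. At least 5 were found in 196 (83.1%), against 68.8% of matched comparison cells. High numbers were thus found in a minority of the selected cells, and the range of the others overlapped that of the comparison cells. In all gated cells, 86 had at least 15 of the 88 genes, of which 40 were selected cells, 23 had 1 rule gene and 23 had none. Set B held 65 of these 86.

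**Figure D2:**
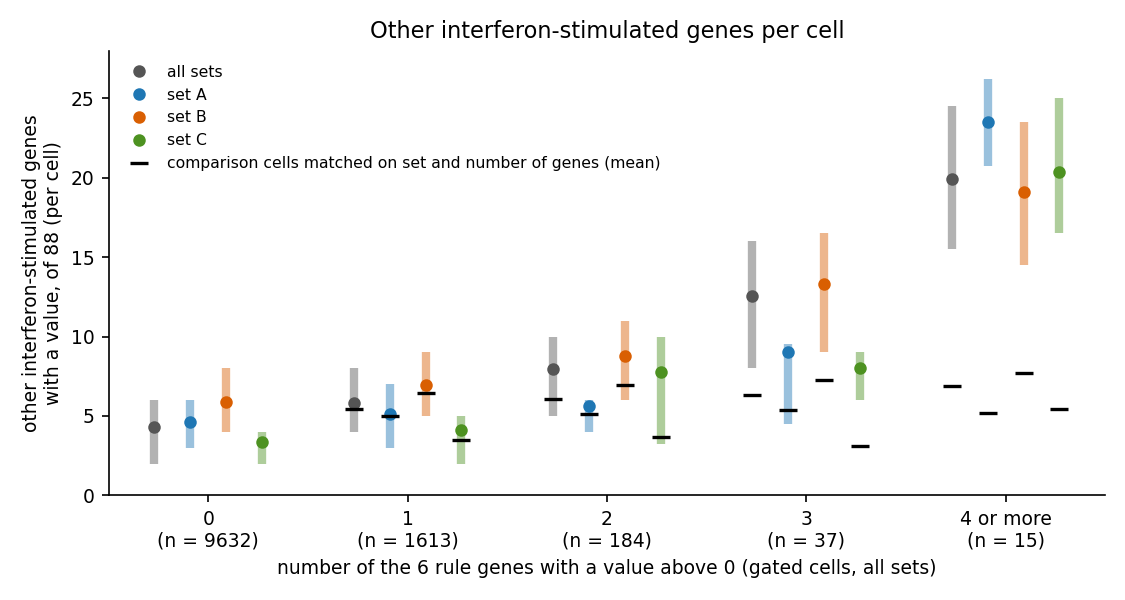
Number of other interferon-stimulated genes with a value, of 88, per gated cell against the number of rule genes with a value, for all sets together and for sets A, B and C (circles, mean; bars, quartiles; black dashes, mean of comparison cells matched on set and number of genes). The mean over all sets goes from 5.82 with 1 rule gene to 19.9 with 4 or more, while the matched value goes from 5.44 to 6.91.

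Selected cells with many other interferon-stimulated genes mostly had little Apoe for their set. Apoe encodes the lipid carrier apolipoprotein E. Its median in comparison cells was 106 in A, 33 in B, 96 in C, 59 in F, and 0 in D and in E. The quartile ranges of A (90.5 to 116) and C (76.5 to 108) overlapped, as did those of B (21 to 39) and F (23.25 to 73). In set A, the 7 selected cells with Apoe below 60 had a mean of 16.7 other interferon-stimulated genes (lowest 6, highest 29), against 4.28 in comparison cells of the same set, Apoe range and gene-number makeup. The 41 selected cells of set A with Apoe of 60 or more had 5.20 (lowest 2, highest 14), against 5.31. These 41 cells therefore met the rule without any excess of the other genes, and for them the name interferon-responsive has no backing outside the rule.

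Set B showed a graded form of the same pattern. Below an Apoe value of 10, 23 of 210 gated cells were selected (11%, 7.07 to 16.0%), and these had 15.4 other interferon-stimulated genes against 7.61 in matched comparison cells. From 10 to 29, 62 of 1158 were selected (5.35%, 4.13 to 6.81%), with 11.2 against 6.41. From 30 to 59, 67 of 1972 were selected (3.40%, 2.64 to 4.3%), with 7.42 against 7.28, nearly the same number. At one gene-number makeup the shares were 10.4%, 6.11% and 2.99%, the same order. Of the 30 selected cells of set B with at least 15 of the 88 genes, 13 lay below 10, 15 from 10 to 29, and 2 from 30 to 59.

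In set C, the 9 selected cells below an Apoe value of 60 had a mean of 12.8 against 3.37 in matched comparison cells, and the 15 from 60 up had 7.33 against 3.93. That second mean was raised by a single cell with 29 genes, and the median of the 15 was 6. Low-Apoe cells also differed in state from the rest of their set. In set B, comparison cells below an Apoe value of 10 had a mean Lyz2 of 2.51 and a summed monocyte list of 5.45, and those from 30 to 59 had 7.66 and 11.5. Lyz2 encodes lysozyme of macrophages. The selected cells of set B ran in parallel, with a Lyz2 of 1.91 below 10 and 7.42 from 30 to 59. The Apoe ranges were set with earlier results of these data in view, and the part of normalisation or cell state in this pattern was not tested.

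Across all genes, 3424 had a value in at least 5% of the selected or of the comparison cells, with the 9 rule and gate genes and sex-linked genes left out. By the set-weighted fold, 891 of them (26.0%) were at least 1.5-fold higher in the selected cells and 43 (1.26%) at least 1.5-fold lower, and the median fold was 1.26. By the matched fold, 355 (10.4%) were higher and 136 (3.97%) lower, with a median of 1.08. With every cell scaled to a total of 10000, and set weights alone, the split was 500 higher and 103 lower, with a median of 1.12. The surplus of higher genes therefore shrank once cells with similar numbers of genes were compared. Higher in the matched form and also above matched comparison cells in each of sets A, B and C were 204 genes (5.96%). The interferon lists joined those 88 genes with the inducible GTPases and the chemokines. Of their 76 genes compared outside the rule, 57 were at least 1.5-fold higher by set, 47 in the matched form, and 37 of those in each of the 3 sets, while 0 were 1.5-fold lower in either form. Their median fold was 2.14 by set and 1.81 matched. A gene that reached 5% only in the selected cells had to be high there, which was true of 31 of the 76. Among the 45 that reached 5% of comparison cells, 23 were 1.5-fold higher in the matched form, against 87 of 2519 genes (3.45%) with the same property.

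The 20 genes with the highest set-weighted fold were taken from those in at least 10% of selected cells, a limit that favours genes high there, and 10 of them were in under 5% of comparison cells. The interferon lists held 16 of the 20, and 2.22% of all genes compared, which is a description of the ranking. The other 4 were Cdc42se1, Ccnd1, Hnrnph2 and Asna1, with set-weighted folds of 2.83, 2.61, 2.56 and 2.47. Ccnd1 encodes cyclin D1, and Asna1 a factor that delivers tail-anchored proteins to membranes. Phf11d led the 20 with a mean of 0.191 in selected and 0.0321 in comparison cells (5.95-fold, matched 4.74-fold). At the other end, among genes in at least 10% of comparison cells, only Ly6c1 was past 1.5-fold by set, with 0.123 against 0.188 (0.653-fold). In the matched form 12 of the 20 lowest were, such as Wipf1 (0.594-fold), and 11 of the 20 were lower in each of sets A, B and C. Ly6c1 was listed as an endothelial gene, and it was 1 of these 11.

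**Figure D3:**
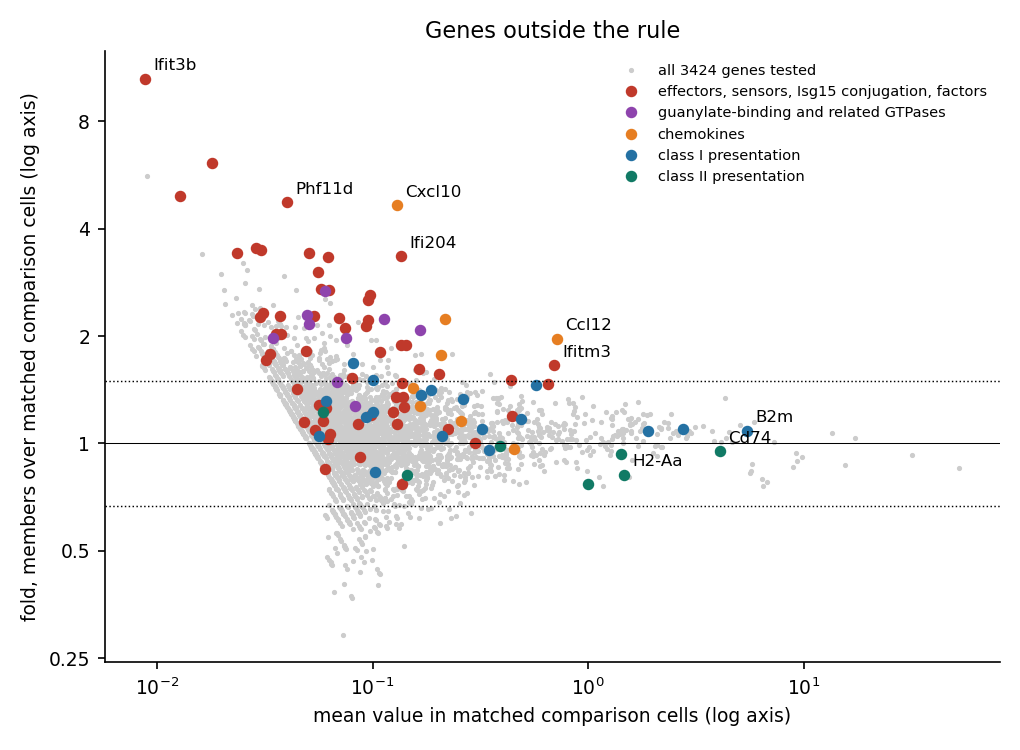
Matched fold of each of the 3424 genes compared against its mean value in matched comparison cells, both on log axes, with dotted lines at 1.5-fold. Of the 76 interferon-stimulated genes, 47 lie above the upper line, among them Ifit3b at 10.5-fold and Ifitm3 at 1.66-fold, while class I genes such as B2m (1.09-fold) and class II genes such as H2-Aa (0.817-fold) lie near 1.

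Among the antiviral effectors, 32 of 50 listed genes were compared. Of these, 26 were at least 1.5-fold higher by set and 22 in the matched form (all genes, 26.0% and 10.4%), and the median matched fold was 1.81. As 15 of the 32 reached 5% only in selected cells, the 17 others give a lower median, 1.53. Of these 17, 10 were 1.5-fold higher matched (all such genes, 3.45%). Ifitm3, which blocks virus entry at endosomes, had a mean of 1.16 in selected and 0.646 in comparison cells (1.79-fold, matched 1.66-fold). It had a value in 61.0% of selected cells. By set, its mean in selected and in comparison cells was 0.562 and 0.342 in A, 1.39 and 0.830 in B, and 1.04 and 0.272 in C. Bst2, or tetherin, which holds budding virions at the cell surface, stood at 0.657 against 0.374 (1.76-fold, matched 1.5-fold).

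The double-stranded-RNA-activated kinase gene Eif2ak2 was 2.89-fold higher (0.123 against 0.0425, matched 2.28-fold), and the dNTP hydrolase gene Samhd1 2.15-fold (0.271 against 0.126, matched 1.89-fold). Xaf1, a pro-apoptotic interferon target, was 3.37-fold higher (0.169 against 0.0503), Rtp4 3.07-fold (0.157 against 0.0510) and Slfn5, of the Schlafen family, 3.95-fold (0.208 against 0.0526). The difference in Xaf1 lay in sets B and C, since its matched fold was 1.06 in A, 2.82 in B and 5.64 in C. Not every effector was higher, since Ifitm2 was at 1.10-fold matched, Lgals3bp at 1.19-fold, and Ifi27, a mitochondrial protein, at 0.771-fold. Mx2 was at 0 in the selected cells, and Mx1, Oas1a and Oasl1 had a value in 11, 10 and 10 of the 236, too few to be compared.

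Ifit3b had the highest matched fold of all list genes, 10.5, with a value in 15 of 236 selected cells. It is a near-identical neighbour of the rule gene Ifit3, so reads of one may have been assigned to the other, and this value is uncertain for that reason. The same caution holds within the Phf11, Schlafen and Ifi200 clusters, whose members resemble each other.

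Of 27 sensors of nucleic acid, 14 were compared. By set 10 were past 1.5-fold and 9 matched (all genes, 26.0% and 10.4%), with a median matched fold of 2.37. Only 7 of the 14 reached 5% of comparison cells, and their median was 1.35, with 3 past 1.5-fold matched (all such genes, 3.45%). The DNA-binding Ifi200 family made up most of it. Ifi204 had a value in 72 of 236 selected cells (30.5%), with a mean of 0.453 against 0.115 (3.95-fold, matched 3.35-fold). In sets A, B and C its mean was 0.25, 0.451 and 0.792 in selected cells, and 0.0923, 0.133 and 0.0817 in comparison cells, and all 3 selected cells of set D had it. Ifi211 was 4.21-fold higher, Ifi209 3.62-fold, Ifi207 2.84-fold, and Ifi206, found in 1.6% of comparison cells, 6.90-fold. Of the RNA helicases, Ifih1 (MDA5) was 3.84-fold higher and Ddx58 (RIG-I) 2.64-fold, in 21 and 16 selected cells. Zbp1, the sensor of left-handed nucleic acid, was 2.45-fold higher (0.199 against 0.0812). By contrast the endosomal receptor gene Tlr7 had a matched fold of 0.847, Aim2 of 1.14, and Tmem173, which encodes STING, of 1.35.

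All 4 compared genes of Isg15 conjugation were past 1.5-fold by set and 3 matched (all genes, 26.0% and 10.4%). Each reached 5% only in selected cells, however. Usp18, which removes Isg15 and dampens receptor signalling, was 4.01-fold higher (0.106 against 0.0264) in 21 selected cells. The ligase gene Herc6 was 2.91-fold higher, the conjugating enzyme gene Ube2l6 2.11-fold and the activating enzyme gene Uba7 1.6-fold.

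Of 9 transcription factor genes, 3 were past 1.5-fold by set and 2 matched (all genes, 26.0% and 10.4%), with a median matched fold of 1.21. Both matched genes were among the 7 that reached 5% of comparison cells (all such genes, 3.45%). Irf7, the amplifier of interferon production, was 2.81-fold higher (0.157 against 0.0558, matched 2.24-fold), with means of 0.0625, 0.170 and 0.25 in the selected cells of A, B and C and 0.0334, 0.0689 and 0.0374 in their comparison cells. Stat2 and Irf9 were at 1.15-fold and 1.09-fold matched. Irf8, the lineage factor of microglia and macrophages, was at 1.00-fold.

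Of 7 receptor chains and kinases compared, 1 was past 1.5-fold by set and 0 matched (all genes, 26.0% and 10.4%), with a median matched fold of 1.06. Ifnar2 was at 1.08-fold and Ifnar1 at 1.38-fold matched, with a value in 15 selected cells for Ifnar1, of which none was among the 15 cells with 4 or more rule genes. Of the interferon ligands, Ifng alone was in the table, with a value in 2 selected cells.

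The interferon-inducible GTPases, which attack vacuoles that hold pathogens and respond to type II interferon as well, had 9 of 16 listed genes compared. All 9 were past 1.5-fold by set and 7 matched (all genes, 26.0% and 10.4%). Of the 6 that reached 5% of comparison cells, 4 were past it matched (all such genes, 3.45%). Gbp2 was 2.42-fold higher (0.347 against 0.144), with means of 0.167, 0.444 and 0.25 in the selected cells of A, B and C and 0.0732, 0.191 and 0.0400 in their comparison cells. Iigp1 was 2.53-fold higher (0.254 against 0.1), yet in set A its share of cells was 6.25% in selected and 6% in comparison cells. Ifi47 was 2.95-fold and Irgm1 2.35-fold higher. Neither Irgm1 nor Igtp (1.67-fold, matched 1.49-fold) had a value in the 24 selected cells of set C.

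Chemokines had 8 of 12 listed genes compared, 5 past 1.5-fold by set and 4 matched (all genes, 26.0% and 10.4%). All 8 reached 5% of comparison cells, and of all such genes 3.45% were past 1.5-fold matched. Cxcl10, the ligand that draws Cxcr3-bearing T cells, had the second-highest fold of the leading genes, with a mean of 0.606 against 0.116 (5.23-fold, matched 4.67-fold). It was a matter of few cells: 47 of 236 had a value (19.9%), and the highest cell, in set A, held 27, or 18.9% of the summed value. Without it the fold was 4.26. In set A only 2 of 48 selected cells had Cxcl10 (4.17%), no more than the 4.74% of comparison cells, while in B it was 41 of 153 (26.8%) against 13.5%, and in C 3 of 24 (12.5%) against 2.78%. By number of rule genes its mean was 0.266 with 2, 0.676 with 3 and 4.60 with 4 or more.

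The monocyte-attracting chemokine genes were more widespread. Ccl12 had a value in 122 selected cells (51.7%), with a mean of 1.40 against 0.639 (2.2-fold, matched 1.97-fold), and it was higher in A (1.15 against 0.274), B (1.5 against 0.869) and C (1.13 against 0.142). Ccl2 was 2.12-fold higher (0.369 against 0.174). Ccl4 was 2.41-fold higher (0.483 against 0.2), but 1 cell of set B held 19.3% of its summed value, and in set C it was not higher (matched 0.655-fold). Ccl5 was near the comparison level (1.10-fold, matched 0.964-fold), and Cxcl9, a target of type II interferon, was at 1.48-fold, or 1.28-fold matched.

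**Figure D4:**
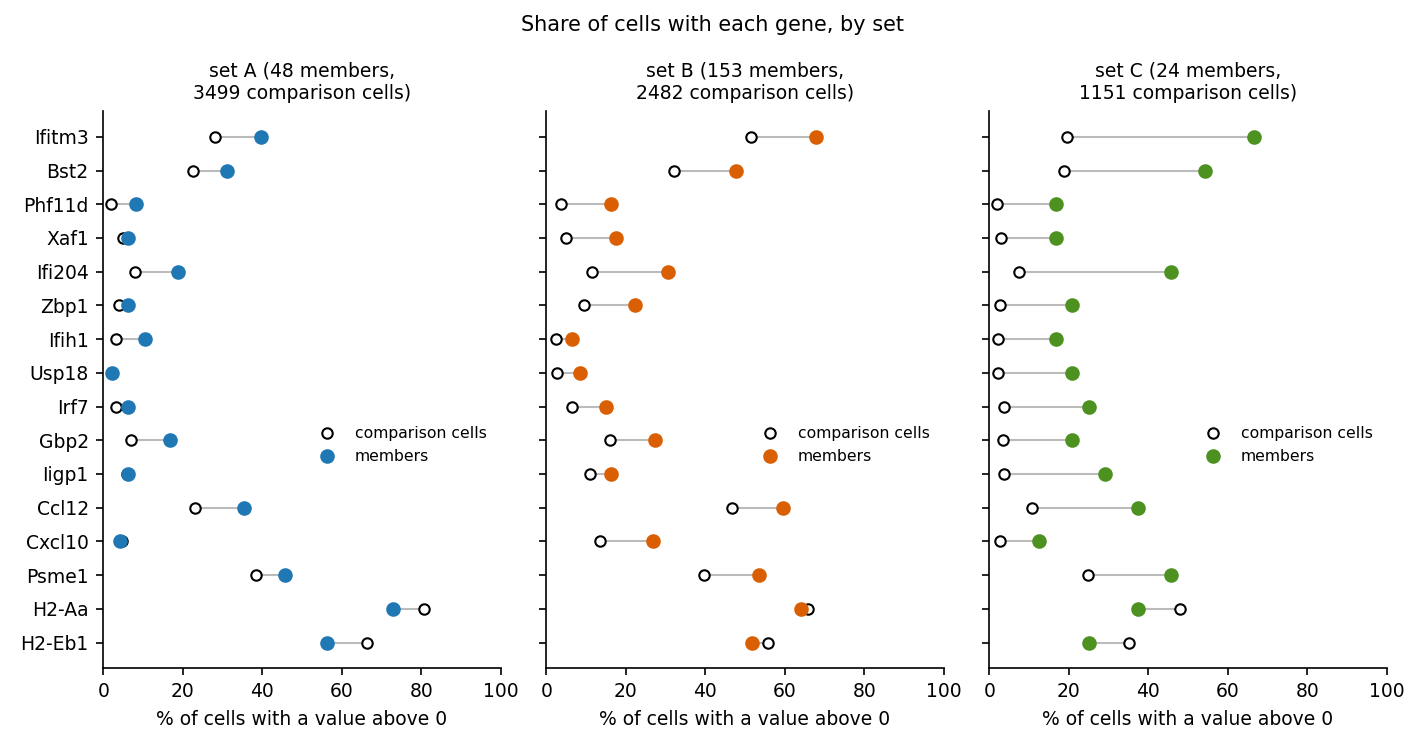
Percentage of cells with a value above 0 for 16 genes in sets A, B and C, for selected cells (members, filled) and comparison cells (open). Ifi204 goes from 8.09% to 18.8% in A, from 11.4% to 30.7% in B and from 7.38% to 45.8% in C, whereas Cxcl10 in A is at 4.74% and 4.17%.

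Of 9 other inflammatory genes compared, 4 were past 1.5-fold by set and 2 matched (all genes, 26.0% and 10.4%). The median matched fold was 1.27, or 1.17 over the 6 that reached 5% of comparison cells. Of these 6, 1 was past 1.5-fold matched (all such genes, 3.45%). Il1b, which encodes the inflammasome product interleukin-1β, was at 1.08-fold, or 0.935-fold matched, and the NF-κB inhibitor gene Nfkbia at 1.27-fold matched. Il1rn, the receptor antagonist gene, was 2.42-fold higher, but this came from set B alone, because no selected cell of A or C had a value in it. Tnf had a value in 5 selected cells and Nos2 in 2.

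Class I and class II presentation genes are given side by side, and the difference between the classes was not tested. Of 18 class I genes compared, 8 were past 1.5-fold by set and 2 matched (H2-T22 at 1.68-fold and the peptide transporter gene Tap1 at 1.51-fold, which was lower in set C at 0.690-fold), with a median matched fold of 1.18. By set, 26.0% of all genes were past 1.5-fold, and the matched share, 11.1%, was close to the 10.4% of all genes. Both matched genes were among the 16 class I genes that reached 5% of comparison cells. Of all genes with that property, 87 of 2519 (3.45%) were higher matched. The heavily expressed heavy chain genes H2-K1 and H2-D1 were at 1.08-fold and 1.10-fold matched, with means of 2.06 and 3.03 in selected cells, and B2m, their light chain, at 1.09-fold with a mean of 5.94. Each of the 3 was above matched comparison cells in sets A, B and C. The proteasome activator genes Psme1 and Psme2, at 1.46-fold and 1.33-fold, and the immunoproteasome genes Psmb9 and Psmb10, at 1.41-fold and 1.37-fold, were also higher in each of these sets. Of the class II genes, 0 of 7 were past 1.5-fold in either direction (all genes matched, 10.4% higher and 3.97% lower). Their median matched fold was 0.931. H2-Aa was at 0.817-fold matched (1.20 against 1.42 by set) and H2-Eb1 at 0.772-fold (0.771 against 0.956), and both were lower in each of A, B and C. Cd74, the invariant chain gene, was at 0.951-fold.

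Myeloid genes that the gate did not use were also found in the selected cells. At least 3 of 12 such genes had a value in 99.6% of selected and 98.7% of comparison cells. The same held for 1244 of the 2133 cells outside the gate. All 12 genes were compared, and 0 were past 1.5-fold in either direction (all genes matched, 10.4% higher and 3.97% lower). The median matched fold was 1.13. C1qb had a value in 97.0% of selected cells, Fcer1g in 87.7%, Csf1r, the receptor on which microglia depend, in 55.9% and Aif1 in 62.3%. Of 15 homeostatic microglia genes compared, 3 were past 1.5-fold by set and 0 matched (all genes, 26.0% and 10.4%). Their median matched fold was 1.06. Within the list, the sialic acid receptor gene Siglech (1.39-fold) and Serpine2 (1.37-fold) were higher in each of A, B and C, while the purinergic receptor gene P2ry12 (0.789-fold), Fcrls (0.861-fold) and Plxdc2 (0.822-fold) were lower in each. The homeostatic genes therefore did not share 1 direction.

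Disease-associated microglia genes had 0 of 16 past 1.5-fold higher in either form (all genes, 26.0% by set and 10.4% matched). In the matched form 1 was 1.5-fold lower (all genes, 3.97%), and the median was 0.931. Apoe was at 0.854-fold (44.8 against 50.6 by set) and Spp1, which encodes osteopontin, at 0.781-fold (5.28 against 6.67), both lower in each of A, B and C in the matched form. Without matching on gene number, Apoe in set A was nearly the same in both groups, with a mean of 99.8 in selected and 99.3 in comparison cells. Clec7a (dectin-1), at 1.16-fold, was the one member higher in all 3, and Itgax, which encodes CD11c, was at 0.580-fold in 14 selected cells. Of the monocyte list, 12 of 15 were compared, with a median matched fold of 0.955. By set 3 were past 1.5-fold and 1 matched (all genes, 26.0% and 10.4%). Ms4a4c alone was past 1.5-fold matched (2.25-fold, 0.114 against 0.0399 by set), and Lyz2 was at 0.793-fold and lower in each of A, B and C. Plac8 was higher in each of them (1.32-fold), Ly6c2 was at 1.35-fold and Ccr2, the receptor of Ccl2 and Ccl12, had a value in 8 selected cells.

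Oligodendrocyte transcripts were present throughout, Mbp in 87.3% of selected and 95.3% of comparison cells, with a median matched fold of 0.796 over 8 compared genes. The summed level of the oligodendrocyte list was 15.7 against 16.6 in A, 7.86 against 10.2 in B and 9.92 against 14.1 in C. At least 3 of 10 oligodendrocyte genes were found in 94 of 236 selected cells (39.8%) and in 57.6% of comparison cells. These 2 shares were pooled over sets and not matched on set or gene number. The summed value of the list was 0.839-fold the matched comparison. At least 3 of 13 T and NK cell genes were found in 1 selected cell, at least 3 of 8 astrocyte genes in 1, and at least 3 of 8 endothelial genes in 3. Single genes of other lists were past 1.5-fold matched, namely Ighm (1.78-fold), S100a9 (1.61-fold) and Flt1 (1.54-fold), and their part in the results was not tested. For the plasmacytoid dendritic cell list, whose cells are known for interferon production, at least 3 of 9 genes were found in 26 selected cells. This was 11%, against 4.09% of all comparison cells, not matched on set or gene number. The summed value of the list was 1.25-fold the matched comparison. Of its 9 genes, 5 were compared, and 4 of these were above 1 in the matched form. Their median matched fold was 1.29 and the lowest 0.843. By set 3 were past 1.5-fold and 1 matched (all genes, 26.0% and 10.4%). Its genes Bst2, Siglech and Irf8 are shared with interferon-treated or resting microglia, but they were not the only ones compared. Among its other members Klk1 was at 0, and Ccr9, Spib and Ly6d had a value in 1, 1 and 3 selected cells. The source of the plasmacytoid list values was not tested.

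Genes of energy metabolism were examined because the Nd6 mutation affects complex I. The mitochondrially encoded complex I genes had a median matched fold of 0.903 over 6 compared of 7, with mt-Nd2 at 0.826-fold and mt-Nd4 at 0.836-fold, both lower in each of A, B and C, and mt-Nd6, the gene mutated in Nd6 mice, at 1.25-fold with a mean of 0.131. The share of the total taken by mitochondrial genes had a median of 4.63% in selected and 5.95% in comparison cells, pooled over sets without weighting. Of 36 nuclear complex I genes compared, 2 were 1.5-fold higher and 2 lower in the matched form (all genes, 10.4% and 3.97%). Their median was 1.05, and the 11 glycolysis genes had a median of 0.929. Of 7 immediate early and stress genes compared, which dissociation can induce, 2 were past 1.5-fold by set (all genes, 26.0%). In the matched form 0 were (all genes, 10.4%), and Junb stood at 1.30-fold and Atf3 at 1.27-fold.

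**Figure D5:**
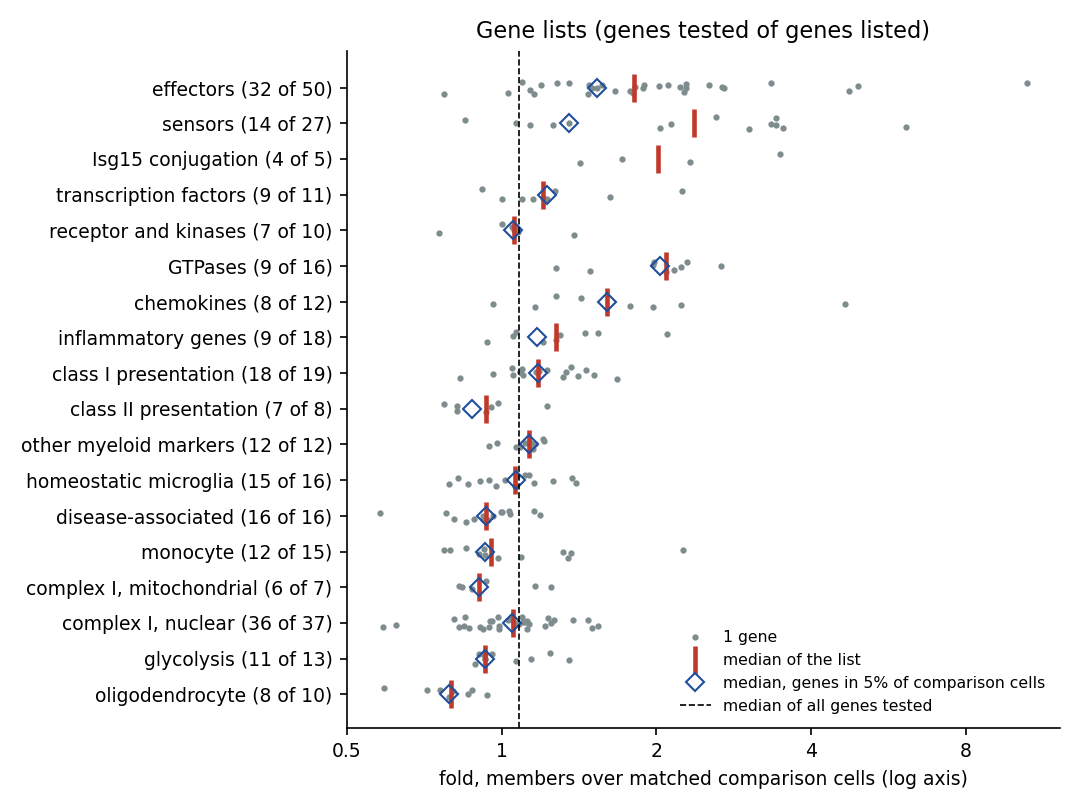
Matched fold of each compared gene (grey points), the median (red bar) and the median of genes that reached 5% of comparison cells (open diamond) for 18 gene lists, on a log axis, with the median of all genes compared, 1.08, as a dashed line. The bar and the diamond lie far apart for sensors (2.37 and 1.35) and closer together for effectors (1.81 and 1.53) and GTPases (2.09 and 2.03), and Isg15 conjugation has no diamond because its 4 genes reached 5% only in selected cells.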

How the data were processed

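Spinal cord cells of 6 libraries were sequenced with droplet 3′ chemistry. Per the submitters' processing notes, Cell Ranger 7.1.0, Seurat 4.3.0.1 and build GRCm38 were used. The deposited table holds whole numbers per gene and cell, treated as a score because their totals lie close together and how the authors derived them from molecule counts is not given in the sources used here. Values were used as deposited, with no further filter on cells and no doublet caller, and 0 columns of other samples were set aside. Members, gene lists, tests and Apoe ranges were chosen with earlier results of these data known.

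A gene was compared if at least 5% of either group held it, as ratios of means under 2 weightings of the comparison cells, and called at 1.5-fold (lower, 0.667). The genes named were the rule and gate genes, members of the gene lists, and the 20 highest and 20 lowest folds among genes in at least 10% of selected (for the highest) or comparison cells (for the lowest). Cdc42se1, Ccnd1, Hnrnph2 and Asna1 were named by that ranking. The weighting by set alone was tested on simulated data. The weighting by set and gene number was not tested in this way. Python 3.11.15, numpy 2.4.6, scipy 1.17.1 and pandas 2.3.3 were used. Alternatives covered scaling, weights, filters, gate, number of rule genes, cells kept, single sets and, added after seeing the data, single cells.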

Additional observations from a re-analysis of the deposited data

How the results depend on the processing

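The depth behind the values is unknown, most positive values are 1, and cells of 1 pooled sample are not replicates, so no alternative measures the spread between animals. No paired analysis was possible because no label links an ending of the cell names to a numbered library, and no test was run. The number of genes at least 1.5-fold higher (891) became 500 with values scaled to 10000 per cell, 355 with weights by set and gene number, 66 with a filter at 20% of cells, 4410 with no filter, 2147 for cells with 3 or more rule genes, and 1572 without cells that held 2 or more genes of another cell type. Under the same alternatives the number at least 1.5-fold lower (43) became 103, 136, 0, 7440, 317 and 213, and it was 98 without set weights and 139 at a gate of 15. The alternative on other cell types left 70 selected and 1360 comparison cells, and 3 or more rule genes left 52 selected cells. Interferon-stimulated genes at least 1.5-fold higher (57) were 11 of 16 with the filter at 20%, which leaves fewer genes to compare, and 47 to 81 under the other alternatives that kept all sets. Leaving out each set gave 856 to 1127 genes higher, 43 to 295 lower and 56 to 60 interferon-stimulated genes higher, and the 295 came without set B. The share of gated cells selected (2.06%) was 0.453% for 3 or more rule genes, and leaving out each set it ran from 1.03% (without B) to 2.57% (without A). Among single genes, the fold of Igtp reversed, from 1.67 to 0.967 without set B, and leaving out each set it ran from 0.967 to 1.75. The causes of these changes were not tested.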

Other observations

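Outside the myeloid gate, 60 of 2133 cells had 2 or more of the 6 rule genes above 0 (2.81%, 2.15 to 3.61%), a share whose interval overlapped that of the gated cells (2.06%, 1.80 to 2.33%). Of the 239 ungated cells with at least 3 of 8 endothelial genes, 18 met the rule on the 6 genes (7.53%, 4.52 to 11.6%), and of the 1079 with at least 3 of 10 oligodendrocyte genes, 17 did (1.58%, 0.920 to 2.51%). Among 13 ungated cells with at least 3 of 8 neutrophil genes, 4 did (30.8%, 9.09 to 61.4%). Cells with 2 or more rule genes were thus not confined to the gate. All intervals are exact binomial ones and cover counting error only.

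At least 3 of 10 proliferation genes were found in 28 of the 236 selected cells (11.9%) and in 479 of the 9632 comparison cells (4.97%). These shares were not matched on set or gene number, and the summed value of the list was 1.05-fold the matched comparison.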
